A study of Mus musculus with 6 samples.

Results

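Chemokines and their receptors were examined in RNA sequencing of mouse renal cortex after ischemic injury, with and without daily BA. The member genes were chosen by symbol alone: every Ccl, Cxcl, Ccr, Cxcr and Ackr symbol followed by a number, together with Cx3cl1, Cx3cr1, Xcl1, Xcr1 and Ccrl2. This rule found 56 of the 19176 rows of the gene table, 35 of them ligands and 21 receptors. All mice were male C57BL/6J animals, 8 weeks old at purchase, whose left renal pedicle had been clamped for 35 min (unilateral ischemia-reperfusion injury, UIRI). The UIRI group received vehicle (5% ethanol in saline) by intraperitoneal injection each day. The UIRI + BA group received BA in the same way at 1 mg/kg per day, a plant quassinoid that the methods call bruceine A and the library labels brucine A. The right kidney of every mouse was removed on day 13, and cortex was taken on day 14. Each group had 3 libraries, each from a separate biological replicate, and sham-operated kidneys were not analysed here, so the values compare BA with vehicle after the same injury.

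Chemokines are small proteins that guide the migration of leukocytes by binding G protein-coupled receptors, and their subfamilies (CC, CXC, CX3C and C) are named after the spacing of conserved cysteines. Most receptors bind several ligands and most inflammatory ligands bind more than a single receptor, whereas atypical receptors take up or present chemokines without classical G protein signaling. In the injured kidney, tubular epithelium, endothelium, fibroblasts and the leukocytes themselves produce chemokines, and receptors such as CCR2, CX3CR1 and CXCR2 are carried by monocytes, macrophages and neutrophils.

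The libraries held 18683621, 18684293 and 38124164 reads on genes in UIRI replicates 1, 2 and 3, against 16510720, 19725912 and 20313529 in UIRI + BA replicates 1, 2 and 3. UIRI replicate 3 was the deepest library. It also stood apart from its group: the first principal component of all genes, with 41.8% of the variance, put UIRI replicates 1 and 2 at -32.5 and -25.5 but UIRI replicate 3 at 11.1, among the UIRI + BA libraries at 30.5, 3.1 and 13.4. The genes that the study also measured by RT-qPCR, and reported as lower with BA after UIRI, placed it variously. Lcn2 read 4507 and Col1a1 read 15382 in this library, above all UIRI + BA libraries (3137 to 3539 and 12344 to 13545), and Havcr1 read 16012, below them (18944 to 22559). Fn1, at 16898, was level with the highest UIRI + BA library (16892), and Ccl2, at 2122, with the lowest (2131). Acta2 (3008), Tnf (142) and Il1b (527) lay within the UIRI + BA range. Lcn2 and Col1a1 thus put this library on the UIRI side in the direction reported by RT-qPCR, whereas Havcr1 and Ccl2 were higher with BA in these data. The labels alone cannot settle whether this library was exchanged with another, and it was kept in its group. For many genes below, the range of the log2 fold change as each library was left out in turn is given. Levels are normalised counts, that is, reads divided by a size factor for each library, so that they compare libraries for the same gene. A gene is counted as higher or lower with BA by the sign of its log2 fold change, the difference between the group means of log2(normalised count + 1). Levels of different chemokine genes are ranked only by normalised counts per kb of transcript, for the 54 members with a single entry in the annotation. Log2 differences between genes within a library are not corrected for length and serve to compare libraries. The gene said to lead a marker list has its highest normalised count, with no regard to length.

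The tissue carried markers of proximal tubule, thick limb, collecting duct and urothelium, and these lists were not used to tell cortex from medulla. All 9 proximal tubule markers looked for were listed, led by Slc34a1, and their summed normalised count was 16363, 18625 and 24999 in UIRI replicates 1 to 3, against 29716, 26696 and 32605 in UIRI + BA replicates 1 to 3. This sum was higher in every UIRI + BA library than in every UIRI library, and all 9 genes were higher with BA (median log2 fold change 0.77). The 7 injured tubule markers, led by Spp1, summed to 439357, 442806 and 422883 in UIRI against 437612, 508093 and 468529 in UIRI + BA, with 5 of them higher with BA. The sums of the injured tubule, thick limb, collecting duct and urothelium lists overlapped between the groups. Those of the neutrophil list and of the fibroblast and myofibroblast list, given below, were lower in every UIRI + BA library. The 3 thick limb markers, led by Umod, summed to 33653, 23828 and 39105 in UIRI against 32720, 28957 and 41723 in UIRI + BA (median log2 fold change 0.09). The 6 collecting duct markers, led by Scnn1b, summed to 1988, 2032 and 2658 in UIRI against 2722, 2755 and 1999 in UIRI + BA, with 5 of them higher with BA (median log2 fold change 0.23). The 8 urothelium markers, led by Krt15, summed to 210, 177 and 651 in UIRI against 81.4, 89.4 and 410 in UIRI + BA, and all 8 were lower with BA (median log2 fold change -1.77), none with an unadjusted p below 0.05. Urothelial genes were thus most abundant in replicate 3 of both groups; Upk2 was at 0 in UIRI + BA replicates 1 and 2, and Upk3a at 0 in UIRI + BA replicate 2. Of 4 adipose markers looked for, 0 stood in the table. The part of tissue composition in the chemokine values was not tested.

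Over the whole family, most ligands were lower with BA, while the even division of receptors depended on genes with few reads. Of the 35 ligands, 25 were lower and 10 higher (71.4% lower; median log2 fold change -0.14). Of the 21 receptors, 11 were lower and 10 higher (52.4% lower; median -0.09), a median that was above 0 without UIRI replicate 2 (0.04) or UIRI + BA replicate 3 (0.02). With a mean normalised count of at least 10, 23 of 33 ligands were lower (69.7%; median -0.13), against 50.4% of all such genes. On the same terms 11 of 18 receptors were lower (61.1%; median -0.17). The receptors that this left out, Ccr3, Ccr8 and Ccr10, were all counted as higher. Ccl21a and Ccr8 are counted as higher although their mean normalised count was lower with BA. Over all 19176 genes 51.1% were lower and the median was -0.005. With limma and adjustment over all genes, 0 of the 56 genes had an adjusted p below 0.05 (0.0% of all genes did), and the smallest adjusted p among them was 0.225. DESeq2, run on the whole reads recovered from the normalised counts, assigned an adjusted p to 41 of the 56 and gave 3 of these an adjusted p below 0.05, against 1.49% of the 14340 genes to which it assigned one. These 3 were Ccl22, Cx3cr1 and Ackr3. edgeR's quasi-likelihood test gave 0, in the family and over all genes, with 1703 genes at an unadjusted p below 0.05.

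At an unadjusted p below 0.05 in limma's test, there were 5 ligands and 6 receptors, where the share over all genes was 10.3%. These counts depend on single libraries: there were 1 ligand and 4 receptors without UIRI replicate 1 (808 of all genes, against 1971), 3 and 5 without UIRI + BA replicate 1 (1270.0), 10 and 9 without UIRI replicate 3 (4838), and 10 and 4 without UIRI + BA replicate 3 (1612). The ligands (14.3%) were Ccl2 and Cxcl13, higher with BA, and Ccl22, Ccl8 and Cxcl5, lower with BA. The receptors (28.6%) were Ackr3, higher with BA, and Cx3cr1, Ccr7, Cxcr2, Ccr2 and Ackr1, lower with BA. In the lower direction these are 8 of 56 genes, where 4.61% of all genes lay, and in the higher direction 3, where 5.67% did. The groups did not overlap in 11 genes of the family (19.6%), 8 lower and 3 higher with BA, and in 14.4% of all genes. For each of these 11 the exact two-sided permutation test gave p = 0.1, the smallest value that 3 libraries against 3 allow. Of the 56 genes, 5 had a mean normalised count under 10, and 4 had 3 reads or fewer in some library (Cxcl15, Ccr3, Ccr6 and Ccr8). The values of these genes rest on few reads, and the smallest difference detectable in them was not determined.

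**Figure D1:**
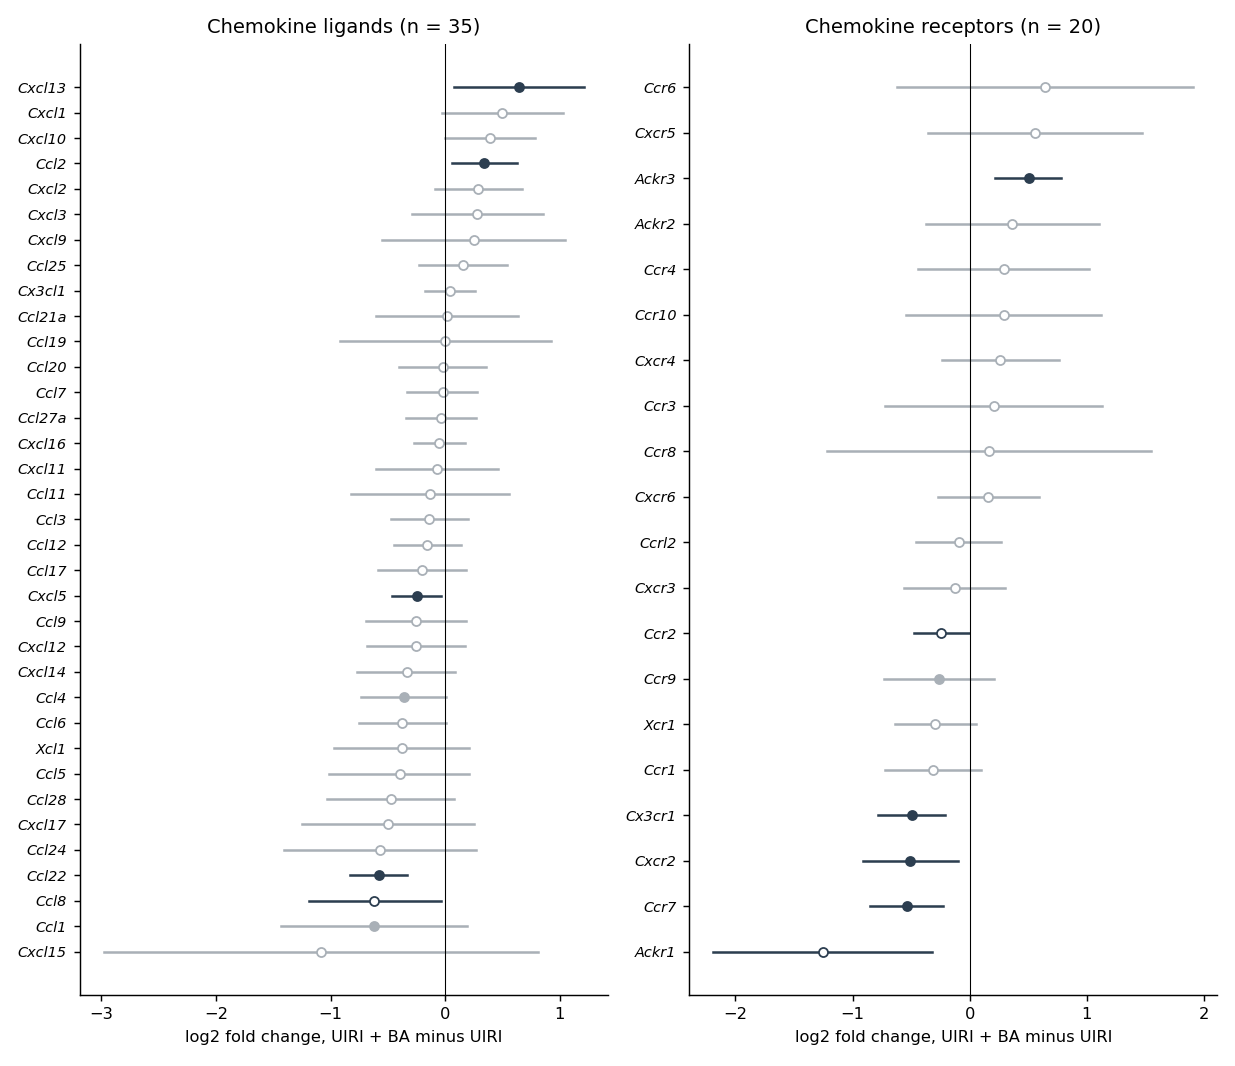
Log2 fold change (UIRI + BA minus UIRI, x axis) of the 35 ligand genes and 20 of the 21 receptor genes, with the 95% confidence interval from limma as a line. Dark lines mark an unadjusted p below 0.05 and filled points mark genes whose groups do not overlap; Ackr3, Ccl2 and Cxcl13 are the dark points to the right of 0.

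Ccl2 encodes MCP-1, the main attractant of CCR2-positive monocytes. Its normalised count was 1708, 2011 and 2122 in UIRI replicates 1 to 3, against 2131, 2909 and 2403 in UIRI + BA replicates 1 to 3. Every UIRI + BA library lay above every UIRI library, although the closest libraries of the groups were nearly level. The study reports the opposite direction for MCP-1 mRNA by RT-qPCR in UIRI kidneys, where it was lower with BA. The means were 1947 ± 214 (SD, n = 3) and 2481 ± 395 (SD, n = 3). For Ccl2 the log2 fold change was 0.34 (standard error 0.13; limma, unadjusted p = 0.0223, adjusted p = 0.433), and it ran from 0.22 to 0.45 as each library was left out in turn. The other CCR2 ligands, which lie beside Ccl2 on chromosome 11, had no such difference. Ccl7 read 427, 357 and 418 in UIRI against 339, 468 and 383 in UIRI + BA (log2 fold change -0.02, limma adjusted p = 0.962; -0.15 to 0.08 with each library left out). Ccl12 read 520, 447 and 567 in UIRI against 390, 499 and 489 in UIRI + BA (log2 fold change -0.16, limma adjusted p = 0.675; -0.25 to -0.04 with each library left out). For both, the groups overlapped and the means were level or slightly lower with BA. Within each library, Ccl2 exceeded Ccl7 by 2.0, 2.49 and 2.34 on the log2 scale in UIRI against 2.65, 2.63 and 2.65 in UIRI + BA. The excess of Ccl2 over its neighbor was therefore larger in every UIRI + BA library than in every UIRI library.

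Ccl3, Ccl4, Ccl5, Ccl6 and Ccl9, inflammatory CC chemokines that attract monocytes, macrophages and T cells, were all lower with BA (5 of 5; median log2 fold change -0.36), none with an unadjusted p below 0.05. Ccl6, made by macrophages and other myeloid cells, was the most abundant ligand of the family per kb of transcript, at 3550 normalised counts per kb. It read 8471, 7951 and 5301 in UIRI against 5075, 6257 and 5174 in UIRI + BA. UIRI replicates 1 and 2 were high, and UIRI replicate 3 lay within the UIRI + BA range. Its log2 fold change was -0.37 (standard error 0.17; limma, unadjusted p = 0.0528, adjusted p = 0.492), from -0.58 to -0.25 as each library was left out. Ccl9, a close relative at 1547 normalised counts per kb, was likewise high in UIRI replicates 1 and 2, and lowest in UIRI replicate 3. It read 5964, 5956 and 3583 in UIRI against 3947, 5016 and 3801 in UIRI + BA. Its log2 fold change was -0.25 (limma adjusted p = 0.652), with -0.13 without UIRI replicate 1 or 2 and -0.50 without UIRI replicate 3. Ccl4 (MIP-1β) was the gene of this group whose libraries did not overlap, at 71.4, 81.0 and 76.1 in UIRI against 52.6, 62.5 and 62.6 in UIRI + BA. Its log2 fold change was -0.36 (limma, unadjusted p = 0.0561, adjusted p = 0.495). Ccl3 and Ccl5 overlapped, with log2 fold changes of -0.14 (-0.22 to -0.06 with each library left out) and -0.40 (-0.68 to -0.17).

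Macrophage and monocyte markers were likewise lower with BA, few of them past the unadjusted threshold. All 13 genes of the list were listed and all 13 were lower (median log2 fold change -0.26, from -0.42 to -0.18 with each library left out). In limma's test 2 of them, Itgam and Mrc1, had an unadjusted p below 0.05 (15.4%, against 10.3% of all genes). The summed normalised count of the list, led by Lyz2, was 135108, 122605 and 94735 in UIRI against 95487, 104407 and 90764 in UIRI + BA. UIRI replicate 3 again lay within the UIRI + BA range, as it did for Ccl6. In RNA from whole cortex, fewer cells of a type and less RNA per cell cannot be told apart. Taken against the mean of the macrophage and monocyte list within each library, Ccl9 stood at 0.65, 0.77 and 0.38 on the log2 scale in UIRI against 0.52, 0.77 and 0.55 in UIRI + BA. Ccl6 stood at 1.15, 1.18 and 0.95 in UIRI against 0.88, 1.09 and 0.99 in UIRI + BA. Relative to these markers, then, both ligands overlapped between the groups, with mean differences of 0.01 and -0.11. Differences within a library, between a gene and a list or between a pair of genes, were chosen here and throughout after the values were seen and carry no test.

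Ccl22 and Ccl17, ligands of CCR4 that dendritic cells and macrophages make and that attract regulatory and helper T cells, are neighbors on chromosome 8 but differed in size of effect. Ccl22 read 383, 390 and 336 in UIRI against 247, 268 and 227 in UIRI + BA. Every UIRI + BA library was well below every UIRI library, UIRI replicate 3 included. The means were 370 ± 29.3 (SD, n = 3) and 247 ± 20.3 (SD, n = 3). For Ccl22 the log2 fold change was -0.58 (standard error 0.11), with the smallest p of the family (limma, unadjusted p = 0.000559, adjusted p = 0.225; DESeq2, adjusted p = 0.0129). It ran from -0.64 to -0.52 as each library was left out. Ccl17 had a log2 fold change of -0.20 (limma adjusted p = 0.682; -0.37 to -0.10 with each library left out), with overlapping groups. Within each library, Ccl22 differed from Ccl17 by -0.07, -0.12 and 0.21 on the log2 scale in UIRI against -0.30, -0.52 and -0.29 in UIRI + BA. Ccl22 was thus lower relative to Ccl17 in all UIRI + BA libraries. The receptor Ccr4 was scarce and overlapped, at 28.3, 19.1 and 27.4 in UIRI against 47.6, 21.5 and 27.1 in UIRI + BA.

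The 7 dendritic cell markers, all listed and led by H2-Aa, summed to 102154, 103280 and 67211 in UIRI against 73326, 87398 and 66267 in UIRI + BA. All 7 were lower with BA (median log2 fold change -0.17; -0.07 without UIRI + BA replicate 3 and -0.32 without UIRI replicate 3) and none had an unadjusted p below 0.05, and UIRI replicate 3 was as low as the UIRI + BA libraries. Ccl22 was lower relative to this list too: against the list mean it stood at -2.76, -2.85 and -2.61 in UIRI against -3.15, -3.20 and -3.09 in UIRI + BA. The groups did not overlap on that measure. The ligands of CCR7, the receptor that leads mature dendritic cells and naive T cells to lymph nodes, overlapped widely. Ccl19 read 49.8, 63.0 and 23.0 in UIRI against 35.1, 67.8 and 30.3 in UIRI + BA, and Ccl21a read 233, 317 and 136 in UIRI against 208, 268 and 189 in UIRI + BA. Near-identical copies of Ccl19, Ccl21a and Ccl27a exist in the mouse genome, so reads may have been split and the values of these genes are less certain.

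Ccl8 and Ccl1 are the mouse ligands of CCR8, a receptor of helper and regulatory T cells. Ccl8, at 1405 normalised counts per kb, read 1306, 580 and 773 in UIRI against 534, 643 and 473 in UIRI + BA. UIRI replicate 1 was far above the rest, and UIRI replicate 2 lay within the UIRI + BA range. Its log2 fold change was -0.62 (standard error 0.25; limma, unadjusted p = 0.0374, adjusted p = 0.467) and ran from -0.88 to -0.30 as each library was left out. Ccl1 had few reads, between 4 and 23 in each library, and its normalised count was 7.93, 10.1 and 12.6 in UIRI against 5.01, 6.46 and 7.30 in UIRI + BA. The groups of Ccl1 did not overlap, but the unadjusted p was 0.116 in limma's test. Ccr8 itself held 2 to 31 reads, at 2.27, 6.75 and 17.0 in UIRI against 5.01, 11.8 and 7.30 in UIRI + BA. The eotaxins Ccl11 and Ccl24, ligands of CCR3, were also scarce and overlapped, with log2 fold changes of -0.13 (-0.41 to 0.12 with each library left out) and -0.57 (-0.83 to -0.19).

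The CXCR2 ligands, which attract neutrophils, did not go the same way. Cxcl1, Cxcl2 and Cxcl3 were higher with BA and Cxcl5 was lower. Cxcl5 read 1018, 970 and 1064 in UIRI against 808, 811 and 960 in UIRI + BA. Its groups did not overlap, although the closest libraries differed little. The log2 fold change of Cxcl5 was -0.25 (standard error 0.09; limma, unadjusted p = 0.0262, adjusted p = 0.443). Cxcl1 (KC), the most abundant CXCR2 ligand per kb at 838 normalised counts per kb, read 887, 1236 and 1871 in UIRI against 1484, 2057 and 1894 in UIRI + BA. Cxcl2 (MIP-2) read 599, 548 and 872 in UIRI against 710, 906 and 808 in UIRI + BA. In both, UIRI replicate 3 was as high as the UIRI + BA libraries while UIRI replicates 1 and 2 were below all of them. The log2 fold change was 0.50 for Cxcl1 (limma adjusted p = 0.510) and 0.29 for Cxcl2 (limma adjusted p = 0.570). Both depended on single libraries: Cxcl1 was at 0.24 without UIRI replicate 1 and 0.78 without UIRI replicate 3, and Cxcl2 at 0.15 without UIRI replicate 2 and 0.49 without UIRI replicate 3. Cxcl3 was scarce, at 44.2, 64.1 and 37.8 in UIRI against 45.1, 70.0 and 61.6 in UIRI + BA, and its groups overlapped (log2 fold change 0.28; 0.12 to 0.49 with each library left out). Within each library, Cxcl1 differed from Cxcl5 by -0.20, 0.35 and 0.81 on the log2 scale in UIRI against 0.88, 1.34 and 0.98 in UIRI + BA. The difference between these neighbors on chromosome 5 lay further toward Cxcl1 in every UIRI + BA library. As Cxcl1 was higher and Cxcl5 lower with BA, such a shift follows from their fold changes and adds no test.

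The CXCR3 ligands, which interferon-γ induces and which attract activated T cells and NK cells, lie close by on the same chromosome. Cxcl10 (IP-10) read 844, 965 and 838 in UIRI against 1522, 1156 and 873 in UIRI + BA. UIRI + BA replicate 1 was high and replicate 3 within the UIRI range. Between the groups, the log2 fold change of Cxcl10 was 0.39 (standard error 0.17; limma, unadjusted p = 0.0514, adjusted p = 0.488), from 0.19 to 0.59 as each library was left out. Cxcl9 read 701, 734 and 565 in UIRI against 917, 1327 and 403 in UIRI + BA, the latter spanning a range that covered the whole UIRI group (log2 fold change 0.25, limma adjusted p = 0.808; -0.12 to 0.73 with each library left out). Cxcl11 was scarce and overlapped (log2 fold change -0.07). The T cell markers did not stand apart between the groups: of 9 listed, led by Lck, 7 were lower with BA, and they summed to 2291, 2179 and 1761 in UIRI against 2018, 2384 and 1484 in UIRI + BA. The 6 NK cell markers, led by Klrk1, summed to 657, 692 and 435 in UIRI against 557, 527 and 419 in UIRI + BA. The receptor Cxcr3 had a log2 fold change of -0.13 (limma adjusted p = 0.821).

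Because the ligands of CXCR2 and CXCR3 that were higher with BA include known NF-κB target genes, their promoters were read. RefSeq promoter windows (build GRCm38.p6, 250 bases before to 50 bases after the transcription start) were matched by symbol to 42 of the 56 genes. The letters GGNNTTTCC (κB-like), searched on both strands, occurred in the windows of 9 of these 42 genes (21.4%) and in 5.82% of all 32851 windows (6.62% of the 27025 genes with a window). The 9 were Ccl9, Ccl20, Ccr3, Ccrl2, Cxcl1, Cxcl2, Cxcl3, Cxcl9 and Cxcl10. TGANTCA (AP-1-like) occurred in 7 of the 42 (16.7%) and in 7.81% of all windows (8.97% of genes), and TTCNNTTTC (interferon-response-like) in 7 of the 42 (16.7%) and in 8.56% of all windows (9.76% of genes). A match describes these letters only and shows no binding. Among the ligands of CXCR2 and CXCR3, Cxcl5 and Cxcl11, both lower with BA, had no window and could not be read. Nor could Ccl2, which was higher with BA. The 250 bases upstream of the start are shown for the 5 ligands of CXCR2 and CXCR3 with a window, 5′ to 3′ along the gene's strand, with every match of the 3 motifs in capitals. They lie at chr5:90890995-90891244 (plus strand, Cxcl1), chr5:90903649-90903898 (plus strand, Cxcl2), chr5:90785851-90786100 (plus strand, Cxcl3), chr5:92328080-92328329 (minus strand, Cxcl9) and chr5:92348890-92349139 (minus strand, Cxcl10).
Cxcl1: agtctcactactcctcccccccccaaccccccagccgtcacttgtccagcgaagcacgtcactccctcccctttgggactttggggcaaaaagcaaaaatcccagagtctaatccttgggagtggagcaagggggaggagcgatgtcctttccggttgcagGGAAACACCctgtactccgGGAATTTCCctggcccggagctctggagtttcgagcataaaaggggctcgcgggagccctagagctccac
Cxcl2: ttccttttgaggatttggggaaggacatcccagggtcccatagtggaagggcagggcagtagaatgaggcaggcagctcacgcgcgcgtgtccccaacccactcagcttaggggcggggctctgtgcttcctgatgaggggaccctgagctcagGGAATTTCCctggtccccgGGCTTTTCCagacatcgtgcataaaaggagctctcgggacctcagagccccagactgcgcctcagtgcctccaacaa
Cxcl3: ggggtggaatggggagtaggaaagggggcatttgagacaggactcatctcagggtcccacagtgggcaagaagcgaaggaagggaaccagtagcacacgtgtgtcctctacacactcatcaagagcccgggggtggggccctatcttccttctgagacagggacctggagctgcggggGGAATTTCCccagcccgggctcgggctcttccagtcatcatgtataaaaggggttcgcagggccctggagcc
Cxcl9: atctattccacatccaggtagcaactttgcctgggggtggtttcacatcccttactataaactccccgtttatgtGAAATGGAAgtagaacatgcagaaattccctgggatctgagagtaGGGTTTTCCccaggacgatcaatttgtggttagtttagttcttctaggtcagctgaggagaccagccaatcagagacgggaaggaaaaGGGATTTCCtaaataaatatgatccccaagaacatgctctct
Cxcl10: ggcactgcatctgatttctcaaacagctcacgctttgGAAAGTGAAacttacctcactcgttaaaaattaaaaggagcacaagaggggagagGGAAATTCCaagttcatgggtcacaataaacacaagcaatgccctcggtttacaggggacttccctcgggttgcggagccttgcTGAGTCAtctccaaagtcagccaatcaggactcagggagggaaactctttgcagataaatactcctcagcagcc
In Cxcl1, Cxcl2 and Cxcl3 the same letters, GGAATTTCC, began 70, 96 and 72 bases before the start, and Cxcl1 and Cxcl2 each held another κB-like match, 89 and 77 bases before it. Cxcl10 held an interferon-response-like match 213 bases, a κB-like match 158 bases and an AP-1-like match 74 bases before the start. Cxcl9 held an interferon-response-like match 175 bases and κB-like matches 130 and 42 bases before the start. The same letters did not go with the same difference. Among the 7 ligands with a κB-like match, Cxcl1, Cxcl2, Cxcl3, Cxcl9 and Cxcl10 had log2 fold changes between 0.25 and 0.50, Ccl20 had -0.02 and Ccl9 had -0.25.

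The remaining ligands include Cxcl12, the membrane-bound ligands and Cxcl13. Cxcl12, a ligand of CXCR4 and ACKR3 made by stromal cells, read 8263, 5652 and 5281 in UIRI against 4802, 4531 and 6647 in UIRI + BA. The groups overlapped (log2 fold change -0.26, limma adjusted p = 0.637), and without UIRI replicate 1 the log2 fold change was -0.06. The 8 fibroblast and myofibroblast markers, led by Col3a1, were all lower with BA (median log2 fold change -0.32). In limma's test 5 of them had an unadjusted p below 0.05 (62.5%, against 10.3% of all genes). The list summed to 112700, 94001 and 101576 in UIRI against 69505, 73777 and 91642 in UIRI + BA, without overlap. UIRI replicate 1 was the highest library and UIRI + BA replicate 3 the highest of its group both for this sum and for Cxcl12. The other libraries ranked differently. In UIRI the lowest was replicate 2 for the sum and replicate 3 for Cxcl12. In UIRI + BA the lowest was replicate 1 for the sum and replicate 2 for Cxcl12. The membrane-bound ligands were level between the groups. Cx3cl1 (fractalkine), at 1660 normalised counts per kb, read 6427, 7062 and 5794 in UIRI against 6948, 6918 and 5990 in UIRI + BA (log2 fold change 0.04, 95% confidence interval -0.18 to 0.26). Cxcl16, at 2117 normalised counts per kb, read 6573, 6862 and 6080 in UIRI against 5711, 7114 and 6037 in UIRI + BA (log2 fold change -0.05, 95% confidence interval -0.27 to 0.17).

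Cxcl13, which draws B cells to follicles through CXCR5, was scarce but separated the groups. It read 15.9, 15.7 and 15.3 in UIRI against 28.8, 25.8 and 20.9 in UIRI + BA, from 14 to 28 reads in each library. Between the groups, the log2 fold change of Cxcl13 was 0.64 (standard error 0.25; limma, unadjusted p = 0.0305, adjusted p = 0.450), and DESeq2 gave an unadjusted p of 0.115. Its receptor Cxcr5 read 15.9, 9.0 and 8.21 in UIRI against 15, 25.8 and 10.4 in UIRI + BA and overlapped. B and plasma cell markers were also few in reads: the 6 genes, led by Jchain, summed to 512, 443 and 371 in UIRI against 402, 487 and 266 in UIRI + BA, and 5 of them were lower with BA. The epithelial ligands Ccl28, Cxcl14 and Cxcl17 overlapped between the groups, with log2 fold changes of -0.47 (-0.72 to -0.29 with each library left out), -0.34 (-0.57 to -0.18) and -0.50 (-0.73 to -0.11). So did Ccl25 at 0.16 (-0.03 to 0.29), Ccl27a at -0.03 (-0.17 to 0.05) and Xcl1 at -0.38 (-0.61 to -0.24).

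**Figure D2:**
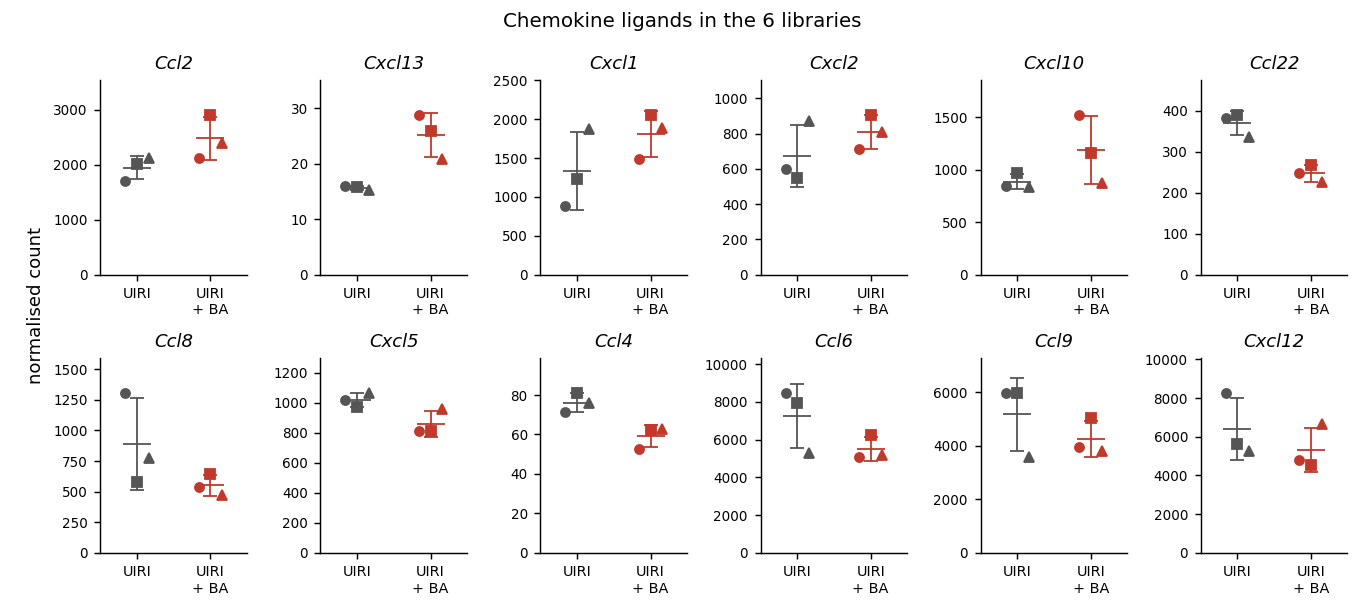
Normalised count (y axis, from 0) of 12 chemokine ligands in the 6 libraries; circles, squares and triangles are replicates 1, 2 and 3, and the horizontal bar with whiskers is the mean ± SD of 3 libraries. Ccl2 and Cxcl13 lie higher and Ccl22, Cxcl5 and Ccl4 lower in all UIRI + BA libraries, while the triangle of the UIRI group lies within the UIRI + BA range for Cxcl1, Cxcl2, Ccl6 and Cxcl12.

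Among the CC receptors, Ccr2, carried by inflammatory monocytes, was the most abundant receptor of the family at 1438 normalised counts per kb. It read 11041, 11413 and 9194 in UIRI against 9041, 9511 and 8132 in UIRI + BA. The means were 10550 ± 1190 (SD, n = 3) and 8895 ± 701 (SD, n = 3), and the groups overlapped because UIRI replicate 3 lay below UIRI + BA replicate 2. The log2 fold change of Ccr2 was -0.24 (standard error 0.10; limma, unadjusted p = 0.0441, adjusted p = 0.483), from -0.34 to -0.18 as each library was left out. The receptor was thus lower with BA and its main ligand, Ccl2, higher. On the log2 scale Ccl2 differed from Ccr2 within each library by -2.69, -2.50 and -2.11 in UIRI against -2.08, -1.71 and -1.76 in UIRI + BA, without overlap (mean difference 0.59). Set against the macrophage and monocyte list, Ccl2 stood at -1.16, -0.80 and -0.37 in UIRI and at -0.37, -0.01 and -0.11 in UIRI + BA (mean difference 0.61). There the groups count as overlapping because UIRI replicate 3 and UIRI + BA replicate 1 were level. Against the macrophage and monocyte list, Ccr2 stood at 1.53, 1.71 and 1.74 in UIRI against 1.71, 1.69 and 1.64 in UIRI + BA. Relative to these markers the level of Ccr2 was close in both groups, with a mean difference of 0.02.

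Ccr7, a receptor of mature dendritic cells and lymphocytes, read 171, 152 and 160 in UIRI against 97.7, 115 and 120 in UIRI + BA. All UIRI + BA libraries were lower, with means of 161 ± 9.63 (SD, n = 3) and 111 ± 11.7 (SD, n = 3). For Ccr7 the log2 fold change was -0.54 (standard error 0.14; limma, unadjusted p = 0.00342, adjusted p = 0.291), between -0.60 and -0.45 as each library was left out. Relative to the dendritic cell list Ccr7 stood at -3.92, -4.21 and -3.67 in UIRI against -4.48, -4.41 and -4.00 in UIRI + BA, and there the groups overlapped. Xcr1, a marker of cross-presenting dendritic cells, had a log2 fold change of -0.30 (limma adjusted p = 0.535), from -0.40 to -0.16 as each library was left out. Ccr9 read 41.9, 39.4 and 37.8 in UIRI against 27.6, 37.7 and 34.4 in UIRI + BA. Its groups did not overlap, but UIRI + BA replicate 2 and UIRI replicate 3 were practically level and the unadjusted p was 0.247 in limma's test. Of the other CC receptors, Ccr1 overlapped with a log2 fold change of -0.32 (-0.51 to -0.17 with each library left out). Ccr3, Ccr6 and Ccr10 had between 3 and 19 reads in each library.

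Cx3cr1, the fractalkine receptor of resident macrophages and patrolling monocytes, read 3954, 3444 and 2681 in UIRI against 2390, 2361 and 2329 in UIRI + BA. The UIRI + BA libraries were nearly equal and lay below all UIRI libraries, of which replicate 3 was the lowest. The means were 3360 ± 640 (SD, n = 3) and 2360 ± 30.6 (SD, n = 3). Between the groups, the log2 fold change of Cx3cr1 was -0.49 (standard error 0.13; limma, unadjusted p = 0.00365, adjusted p = 0.291; DESeq2, adjusted p = 0.0244). It ran from -0.64 to -0.36 as each library was left out. Relative to the mean of the macrophage and monocyte list Cx3cr1 stood at 0.05, -0.02 and -0.04 in UIRI against -0.21, -0.32 and -0.16 in UIRI + BA, without overlap. Ccr2 and Cx3cr1, both receptors of the monocyte and macrophage lineage, therefore differed in that only Cx3cr1 of these 2 separated the groups relative to the 13 markers.

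Cxcr2, the neutrophil receptor for Cxcl1, Cxcl2, Cxcl3 and Cxcl5, read 101, 111 and 89.3 in UIRI against 82.7, 71.1 and 58.4 in UIRI + BA. All UIRI + BA libraries were lower. As a log2 fold change the difference in Cxcr2 was -0.51 (standard error 0.18; limma, unadjusted p = 0.0194, adjusted p = 0.423). Of 5 neutrophil markers looked for, 3 were listed (Ly6g and Retnlg were not), led by Csf3r, and they summed to 1638, 1489 and 1160 in UIRI against 1071, 1093 and 977 in UIRI + BA. These 3 genes were lower with BA (median log2 fold change -0.69), S100a8 and S100a9 without overlap between the groups. Relative to these markers Cxcr2 stood at -2.30, -1.90 and -1.89 in UIRI against -1.7, -2.01 and -2.19 in UIRI + BA. On this measure the groups overlapped (mean difference 0.06). Of its 4 ligands named above 3 were higher with BA, but the difference between Cxcl1 and Cxcr2 within each library overlapped between the groups (mean difference 1.01).

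Cxcr4, the signaling receptor for Cxcl12, read 355, 343 and 665 in UIRI against 490, 526 and 542 in UIRI + BA. UIRI replicate 3 was the highest library and the other UIRI libraries the lowest. The log2 fold change of Cxcr4 was 0.26 (limma adjusted p = 0.685), with 0.12 without UIRI replicate 1, 0.09 without UIRI replicate 2 and 0.57 without UIRI replicate 3. Cxcr6, the receptor for Cxcl16 on T cells and NK cells, read 291, 305 and 234 in UIRI against 307, 401 and 235 in UIRI + BA and overlapped (log2 fold change 0.16; -0.03 to 0.35 with each library left out).

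Among the atypical receptors, Ackr3 (CXCR7), which binds Cxcl12 and removes it from the surroundings of the cell, was higher with BA. It read 977, 1119 and 1288 in UIRI against 1474, 1478 and 1845 in UIRI + BA. Every UIRI + BA library was above every UIRI library, and UIRI replicate 3 was the highest of its group. The means were 1128 ± 156 (SD, n = 3) and 1599 ± 213 (SD, n = 3). The log2 fold change of Ackr3 was 0.50 (standard error 0.12; limma, unadjusted p = 0.00277, adjusted p = 0.271; DESeq2, adjusted p = 0.0292), from 0.40 to 0.60 as each library was left out. Ackr3 differed from Cxcl12 by -3.08, -2.34 and -2.04 on the log2 scale in UIRI against -1.7, -1.62 and -1.85 in UIRI + BA, without overlap. Relative to Cxcr4, in contrast, Ackr3 overlapped between the groups (mean difference 0.24).

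Ackr1, the chemokine-presenting receptor of venular endothelium, was scarce, and its exons overlap those of Cadm3 on the same strand in the GENCODE M21 annotation. Ackr1 read 66.8, 23.6 and 37.8 in UIRI against 11.3, 14.0 and 25.0 in UIRI + BA, from 9 to 69 reads in each library. UIRI replicate 1 was the highest, and UIRI + BA replicate 3 lay above UIRI replicate 2. For Ackr1, the log2 fold change was -1.25 (standard error 0.41; limma, unadjusted p = 0.0142, adjusted p = 0.389), from -1.61 to -0.87 as each library was left out. The 5 vascular endothelium markers, led by Emcn, summed to 8344, 8437 and 7150 in UIRI against 6928, 7805 and 7431 in UIRI + BA, and all 5 were lower with BA (median log2 fold change -0.11; -0.15 to -0.04 with each library left out). Relative to this list Ackr1 stood at -4.45, -5.92 and -5.07 in UIRI against -6.67, -6.55 and -5.68 in UIRI + BA, with overlap. The 4 lymphatic endothelium markers, led by Pdpn, summed to 2257, 2178 and 1982 in UIRI against 1986, 2225 and 1876 in UIRI + BA. Ackr2 and Ccrl2 overlapped, with log2 fold changes of 0.36 (0.14 to 0.60 with each library left out) and -0.09 (-0.22 to 0.04).

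**Figure D3:**
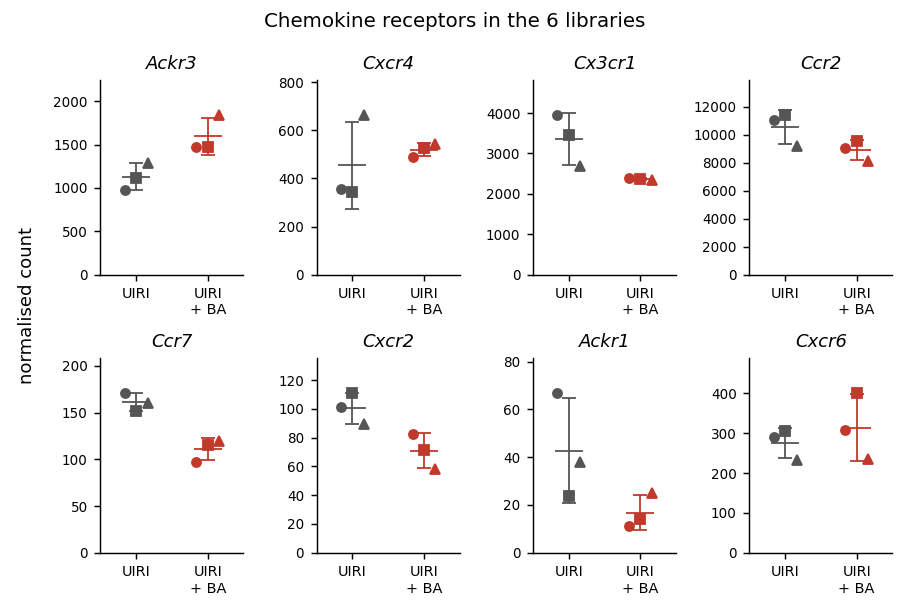
Normalised count (y axis, from 0) of 8 chemokine receptors in the 6 libraries; circles, squares and triangles are replicates 1, 2 and 3, and the horizontal bar with whiskers is the mean ± SD of 3 libraries. Ackr3 lies higher and Cx3cr1, Ccr7 and Cxcr2 lie lower in all UIRI + BA libraries than in any UIRI library.

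**Figure D4:**
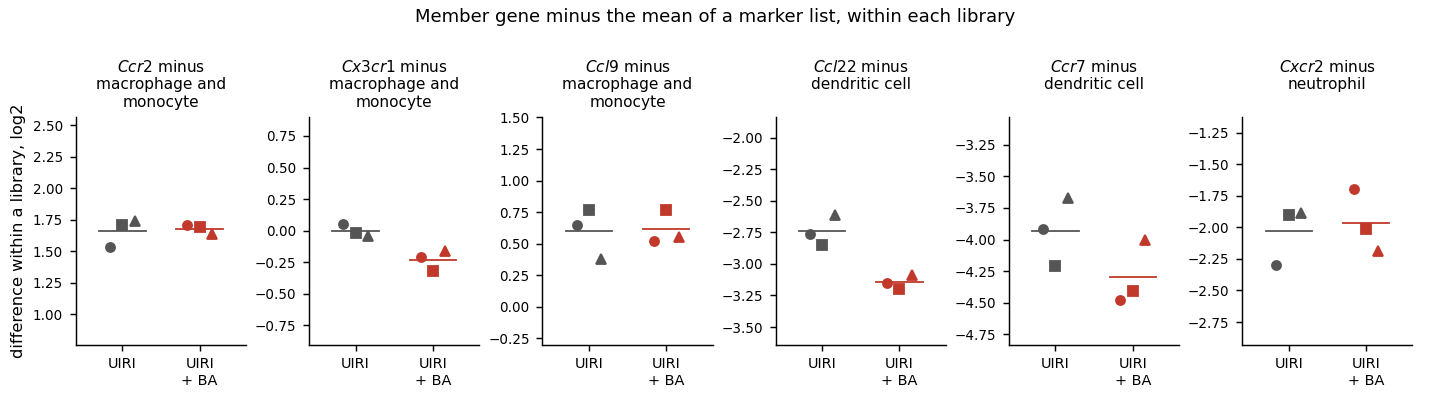
Difference on the log2 scale, within each library, between a chemokine gene and the mean of a marker list (y axis; every panel spans the same range); circles, squares and triangles are replicates 1, 2 and 3, and lines are group means. Cx3cr1 and Ccl22 separate the groups relative to their lists, whereas Ccr2, Ccl9, Ccr7 and Cxcr2 overlap.

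In the GENCODE M21 annotation, tied to the table by symbol, many ligand genes lie in clusters of neighbors less than 200 kb apart, on chromosomes 5, 8 and 11. The cluster of Ccl2, Ccl7, Ccl11, Ccl12, Ccl8 and Ccl1 on chromosome 11 held 1 gene higher and 5 lower with BA, and its extremes were Ccl2 (log2 fold change 0.34) and Ccl1 and Ccl8 (both -0.62). The other chromosome 11 cluster, with Ccl5, Ccl9, Ccl6, Ccl3 and Ccl4, was lower throughout (5 of 5). On chromosome 5, the cluster of Cxcl5, Cxcl3, Cxcl15, Cxcl1 and Cxcl2 held 3 higher and 2 lower, and that of Cxcl9, Cxcl10 and Cxcl11 held 2 higher and 1 lower. Ccl22, Cx3cl1 and Ccl17 on chromosome 8 held 1 higher and 2 lower. Exons of 9 members, among them Cx3cr1, Ackr1, Cxcl10, Cxcl16, Cxcr5 and Ccr9, overlap those of another gene of the table in this annotation. The sources used here do not state whether counting used the strand, so reads of such genes may be shared. Ackr1 and Ccr9 overlap Cadm3 and Gm17200 on the same strand, so for them this holds whichever way the strand was counted.

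UIRI replicate 3 was singled out after its values were seen, and leaving out the UIRI library most like the UIRI + BA libraries widens the difference between groups by construction, so the p-values without it are no test of BA. Without it, limma gave 8 of the 56 genes an adjusted p below 0.05, against 5.02% of all genes. These were Ccl22, Ccl6, Ccl9 and Cx3cr1, lower with BA, and Cxcl1, Cxcl2, Cxcr4 and Ackr3, higher with BA. For Cxcl1, Cxcl2, Cxcr4, Ccl6 and Ccl9, the library lay within or beyond the UIRI + BA values, while for Ccl22, Cx3cr1 and Ackr3 it stayed on the UIRI side. In every fit that left out another library, 0 of the 56 had an adjusted p below 0.05 with limma. Over all alternatives tried, the highest adjusted p of each of these 8 genes was 1.0.

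**Figure D5:**
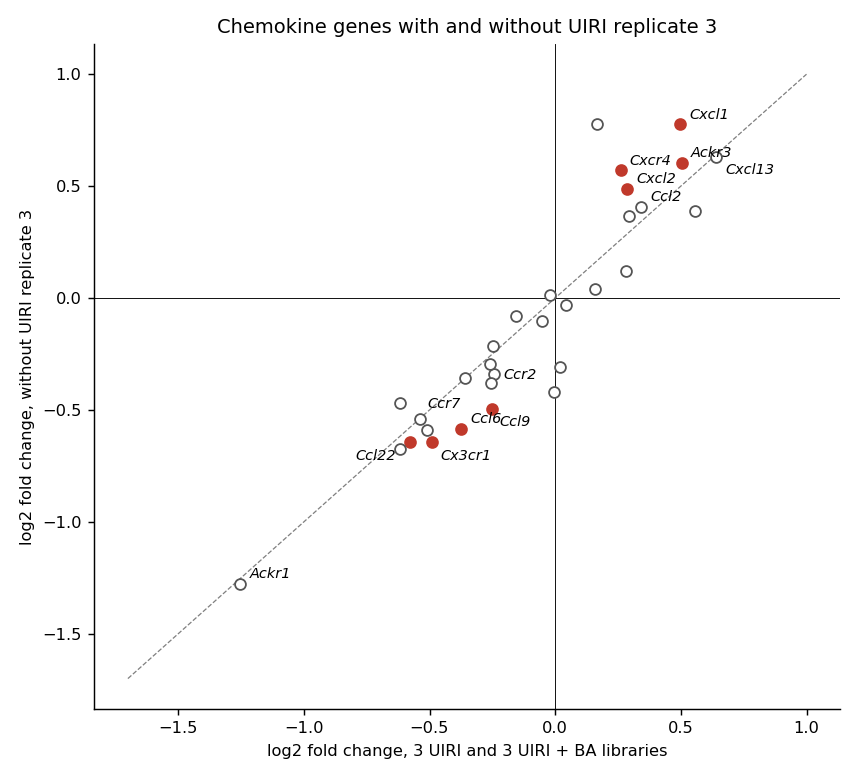
Log2 fold change of 31 named chemokine genes with all 6 libraries (x axis) and without UIRI replicate 3 (y axis); the dashed line marks equal values, and filled points mark an adjusted p below 0.05 without that library. The 8 filled points lie on the outer side of the dashed line, further from 0 than with all libraries.

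Genes that carry the chemokine signal onward or supply it from other families were mostly lower with BA, but few past the unadjusted threshold. Of 33 such genes (platelet chemokines, G protein subunits, arrestins, receptor kinases and the kinases and exchange factors of migrating leukocytes), 27 were lower with BA (median log2 fold change -0.08), and 3 had an unadjusted p below 0.05 (9.09%, against 10.3% of all genes), all lower. The list summed to 146710, 151201 and 109259 in UIRI against 117456, 134201 and 108704 in UIRI + BA, so that UIRI replicate 3 lay within the UIRI + BA range and only UIRI replicates 1 and 2 above it. These were the platelet chemokines Pf4 and Ppbp and the kinase Prkcb. Pf4 read 339, 223 and 260 in UIRI against 148, 196 and 243 in UIRI + BA, and overlapped (log2 fold change -0.49, limma adjusted p = 0.472). Ppbp, a further CXCR2 ligand under another symbol, read 22.7, 20.2 and 32.3 in UIRI against 15, 18.3 and 11.5 in UIRI + BA, without overlap (log2 fold change -0.71, limma adjusted p = 0.473). Cd74, the receptor of MIF and the gene that leads the list, overlapped with a log2 fold change of -0.24, and Dpp4, the protease that trims several chemokines, with 0.13.

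Of 14 cytokines, receptors and transcription factors known to induce chemokine genes, 8 were lower with BA and 6 higher (median log2 fold change -0.02). Tlr2 was the gene of this list with an unadjusted p below 0.05 (7.14% of the list, against 10.3% of all genes). It read 1034, 990 and 1042 in UIRI against 1186, 1177 and 1170 in UIRI + BA, so that every UIRI + BA library was higher (log2 fold change 0.21, standard error 0.07; limma, unadjusted p = 0.0179, adjusted p = 0.417). The cytokines Tnf and Il1b had log2 fold changes of 0.09 and -0.26 with overlapping groups. The NF-κB subunit genes Nfkb1 and Rela had 0.10 and -0.01, and the interferon-response factor Irf7 had -0.47 (limma adjusted p = 0.527). The mRNA of NF-κB subunits holds no measure of their activity.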

How the data were processed

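RNA sequencing of renal cortex was analysed from 3 UIRI and 3 UIRI + BA libraries (poly-A libraries, paired-end reads, NovaSeq). According to the study's methods, reads were filtered, aligned with HISAT2, counted with FeatureCounts and tested with DESeq2; the sources used here do not name the genome build, the annotation or the strand of counting. The signal values deposited by the authors are reads per gene divided by a size factor for each library: the methods name FPKM, but within each library all values are whole multiples of the same step (tolerance 0.01 reads), so whole reads were recovered. A read is worth 1.13, 1.12 and 0.548 normalised counts in UIRI replicates 1, 2 and 3 and 1.25, 1.08 and 1.04 in UIRI + BA replicates 1, 2 and 3. The table has 19176 rows, each with at least 10 reads over the 6 libraries. The authors' own fold changes, p-values and enrichment tables were not used.

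Groups were compared with limma 3.58.1 (R 4.3.3) with an intensity trend on log2(normalised count + 1), with Benjamini-Hochberg adjustment over all rows and a threshold of 0.05, and by the exact two-sided permutation test of the difference in means (Python 3.11.15, scipy 1.17.1). Alternatives were a pseudocount of 0.1, a minimum mean normalised count of 10, quantile normalisation, upper quartile scaling, a replicate block, DESeq2 1.42.0, edgeR 4.0.16 with and without a filter, and each library left out in turn. Code was tested on simulated data. Members, ligand and receptor lists and marker lists were chosen with earlier results of these data known. Genes with values in every library were taken from Ccl2, the member genes with an unadjusted p below 0.05 or without overlap between groups, the 6 ligands and 6 receptors most abundant per kb (transcript lengths from GENCODE M21), and the receptors or ligands paired with the genes chosen by p. Other genes named, and the differences taken within each library, were chosen after the values were seen. Promoter windows are from RefSeq, and positions and exon overlaps from GENCODE M21.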

Additional observations from a re-analysis of the deposited data

How the results depend on the processing

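Of the named genes, Ccl2, Ccl22, Cx3cr1, Ccr7, Ackr3, Cxcl5, Cxcr2, Ccr2, Ccl8, Cxcl13 and Ackr1, those with an unadjusted p below 0.05, kept their direction under every alternative. The unadjusted p stayed below 0.05 throughout for Ccl22, Cx3cr1, Ccr7 and Ackr3 only. With all libraries it was 0.0936 for Ccr2 with quantile normalisation, 0.0664 for Ccl8 with DESeq2, and 0.0513 with a replicate block and 0.115 with DESeq2 for Cxcl13. With limma and a library left out, its highest value was 0.165 for Ccr2, 0.115 for Ccl8, 0.0893 for Cxcl13, 0.0934 for Ccl2, 0.0962 for Cxcl5, 0.0735 for Cxcr2 and 0.0613 for Ackr1. A pseudocount of 0.1, a minimum mean count of 10, quantile normalisation, upper quartile scaling and both edgeR fits gave 0 genes with an adjusted p below 0.05, as limma did. The replicate numbers of the labels did not pair the groups, and a replicate block gave 6 such genes over all genes and none in the family, with 9 ligands in place of 5, 8 receptors in place of 6 and 2106 of all genes in place of 1971 at an unadjusted p below 0.05. DESeq2 gave 213 genes with an adjusted p below 0.05, 1 of them a ligand and 2 receptors. The median log2 fold change of the receptors was -0.09; it was -0.17 with a minimum mean count of 10, which leaves 18 receptors, and -0.16 with edgeR and its filter, which also leaves 18; without the filter edgeR gave -0.115. Ccl19, at -0.003, became 0.035 with quantile normalisation and 0.031 and 0.027 with edgeR with and without a filter. Ccl21a, at 0.02, became -0.0 with upper quartile scaling, -0.037 with DESeq2 and -0.026 and -0.029 with edgeR. Ccr8, at 0.17, became -0.17 with DESeq2 and -0.27 with edgeR without a filter. Under upper quartile scaling the genes at an unadjusted p below 0.05 divided into 942 higher and 1046 lower, against 1087 and 884. With each library left out, genes with an adjusted p below 0.05 ranged from 0 to 962 over all genes, from 0 to 5 among ligands and from 0 to 3 among receptors, above 0 without UIRI replicate 3 alone. Genes at an unadjusted p below 0.05 ranged from 808 to 4838: 808 without UIRI replicate 1, 1270.0 without UIRI + BA replicate 1 and 4838 without UIRI replicate 3, against 1971. Ligands at an unadjusted p below 0.05 ranged from 1 to 10: 1 without UIRI replicate 1, 3 without UIRI + BA replicate 1, and 10 when replicate 3 of either group was left out. Ligands lower with BA ranged from 21 to 25 and receptors from 10 to 13. The median log2 fold change ranged from -0.214 to -0.113 for ligands and from -0.169 to 0.043 for receptors, above 0 at 0.043 when UIRI replicate 2 and at 0.023 when UIRI + BA replicate 3 was left out. The marker medians that changed sign ranged from -0.232 to 0.11 for T cells, from -0.295 to 0.068 for NK cells and from -0.429 to 0.129 for B and plasma cells (above 0 without UIRI + BA replicate 3), from -0.059 to 0.036 for lymphatic endothelium (above 0 when UIRI replicate 3 or UIRI + BA replicate 2 was left out) and from -0.095 to 0.249 for thick limb (below 0 when UIRI replicate 2 or UIRI + BA replicate 3 was left out). Other marker medians kept their sign, from 0.113 to 0.437 for collecting duct, from 0.12 to 0.316 for injured tubule and from -2.783 to -0.883 for urothelium, among others. The median of all genes ranged from -0.008 to 0.002. Among the genes chosen by rule, the sign changed in Ccl19 (-0.419 to 0.288), Ccl21a (-0.31 to 0.295), Ccl7 (-0.147 to 0.085), Ccr4 (-0.023 to 0.531), Ccr8 (-0.453 to 0.778), Cx3cl1 (-0.029 to 0.114), Cxcl16 (-0.146 to 0.012) and Cxcr6 (-0.035 to 0.349). Of the other members it changed in Ccl11, Ccl20, Ccl25, Ccl27a, Cxcl9, Cxcl11, Ccr3, Cxcr3 and Ccrl2. The cause was not tested. Depth limits the genes with few reads, such as Ccr8, Ccl1, Cxcl13 and Ackr1. A read is worth 0.548 normalised counts in UIRI replicate 3 and from 1.04 to 1.25 in the other libraries.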
